A study of Saccharomyces cerevisiae with 15 samples.

Results

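ETS2, the 3′ external transcribed spacer, is the last stretch of the 35S gene of budding yeast (Saccharomyces cerevisiae) and was taken here as all positions that the deposited tables set after the 25S gene, 3.08% of the positions of the gene. Positions are numbered from the 5′ end of ETS2, and a single base is named by its letter and number, so that U15 is the U at position 15. The data were 15 NET-seq libraries, in 5 groups of 3, from wild-type yeast grown at 30 °C, in a strain whose second largest Pol I subunit (Rpa135) carries a tag used to pull the enzyme down. NET-seq (native elongating transcript sequencing) sequences the 3′ ends of RNAs co-purified with a polymerase, in this case RNA polymerase I (Pol I), and a read thus gives the last base of 1 such RNA. The study asked how divalent cations and nucleases added to the lysate change the Pol I profile. Whether replicates came from separate cultures is not stated in the labels for these groups, so p-values measure only the spread between these libraries.

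The lysate of the MnCl2 + DNase I group received 10 mM MnCl2 and 100 U/mL DNase I, and that of the MnCl2 group received 10 mM MnCl2 alone. Both were held on ice for 20 minutes and for 30 more minutes after EDTA was added. The lysate of the CaCl2 + MNase group received 5 mM CaCl2 and 100 U/µL MNase (micrococcal nuclease), and that of the CaCl2 group received 5 mM CaCl2 alone, both for 2 minutes at 37 °C. The 4 treated groups also shared EDTA, a chelator of such cations, at 5 mM. The untreated lysate had no cation, no nuclease, no EDTA and no incubation. A cation, its incubation and EDTA thus cannot be told apart in any comparison with it. Where the protocol text calls the MNase group by DNase I, the group names were followed.

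As background, ETS2 is transcribed after the 25S rRNA sequence and is removed from the precursor RNA. Its RNA folds into a hairpin that the RNase III enzyme Rnt1 recognizes by an AGNN loop and cuts on both sides of the stem while Pol I is still transcribing, and the free 5′ end lets an exonuclease degrade the RNA behind the polymerase. Downstream lies the terminator T1, a T-rich element followed by a binding site for the Myb-like proteins Reb1 and Nsi1, and most polymerases stop there. MNase needs calcium and cuts DNA and RNA, whereas DNase I acts on DNA alone and can use manganese as its cofactor.

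The RNA of ETS2 is shown because each result below is tied to a place in it. Its DNA lies at chrXII:460712-460922 of the R64 assembly on the minus strand, in the gene copy RDN37-2, and the annotated copies ETS2-1 and ETS2-2 differ at 0 bases, so occupancy is a sum over the repeats. In the whole spacer, the capitals mark, in this order, the 35-base stretch that the tables label as Rnt1-cleaved (positions 16 to 50), the T1 base (position 92) and the Reb1/Nsi1 site (positions 110 to 120).
ETS2: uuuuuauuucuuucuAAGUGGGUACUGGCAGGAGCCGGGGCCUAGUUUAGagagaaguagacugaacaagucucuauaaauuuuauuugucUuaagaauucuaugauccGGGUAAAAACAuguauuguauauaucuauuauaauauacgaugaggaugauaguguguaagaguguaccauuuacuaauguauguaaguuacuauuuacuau
U made up 37.4% of the spacer, against 28.0% of the 35S gene.

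The hairpin (positions 3 to 65, chrXII:460858-460920, minus strand) is shown because the changes around the 25S end fall on its 5′ arm and the largest falls fall on its loop. The capitals mark the 4-base loop, an AGGA at positions 30 to 33.
Rnt1 hairpin: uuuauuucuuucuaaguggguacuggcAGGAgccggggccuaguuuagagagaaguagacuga
Folded with RNAfold, these bases formed 26 pairs with a free energy of -31.2 kcal/mol. In this fold C14 paired with G50 and U15 with A49, so both ends of the Rnt1-cleaved stretch lie close together on opposite arms of the stem.

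The terminator (positions 73 to 98, chrXII:460825-460850, minus strand) is shown with T1 in capitals, and the Reb1/Nsi1 site (positions 100 to 130, chrXII:460793-460823, minus strand) with the site itself in capitals.
T1: ucuauaaauuuuauuugucUuaagaa
Reb1/Nsi1 site: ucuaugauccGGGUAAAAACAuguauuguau
Of the 19 bases before T1, 11 were U, and 2.65% of 35S windows of that length held as many. The Reb1 core CGGGTAA, searched on both strands, occurs 3 times in the 35S gene. The copy in ETS2 starts at C109, just before the marked site, so the marked bases alone do not hold the whole core. Of all 11-base windows of the gene, 0.219% held it, and the window of the marked site did not.

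Values are CPM, counts per 1e6 reads of the 35S gene up to T1. Depth over the gene was 2835792 to 13234575 reads per library, so that 1 read was worth 0.0756 to 0.353 CPM, and ETS2 held 3996 to 92774 reads. In every library the first 2 positions of ETS2 were at 0, and 209 remained for testing. The precision was lowest in the 6 libraries of the MnCl2 and MnCl2 + DNase I groups, where 158 to 177 positions of ETS2 held 3 reads or fewer. Such positions are treated as being at the floor. A position was called where limma, on log2(CPM + 1) of the 6 libraries of a pair, gave a Benjamini-Hochberg adjusted p under 0.05 over all 35S positions tested.

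In a pair of libraries the profile went against the label, in ETS2 and over the other spacers alike. Over all positions of ETS2, CaCl2 replicate 3 had a Spearman rho of 0.911, 0.729 and 0.957 with CaCl2 + MNase replicates 1, 2 and 3, against 0.747 and 0.669 with CaCl2 replicates 1 and 2. CaCl2 + MNase replicate 2 had a rho of 0.681 and 0.787 with replicates 1 and 3 of its own group, against 0.879 and 0.811 with CaCl2 replicates 1 and 2. The 3 untreated libraries had rho of 0.955 to 0.967 with each other, so both mismatches were wider than the spread in that group. Over the other spacers CaCl2 replicate 3 had 0.940, 0.757 and 0.949 with CaCl2 + MNase replicates 1, 2 and 3, against 0.742 and 0.710 with its own group. CaCl2 + MNase replicate 2 had 0.909 and 0.828 there with CaCl2 replicates 1 and 2, against 0.756 and 0.802 with its own group. Past T1, 23.2% and 28.7% of the CPM of CaCl2 + MNase replicates 1 and 3 and 23.3% of that of CaCl2 replicate 3 ended on A, whereas CaCl2 + MNase replicate 2 had 62.6%, CaCl2 replicates 1 and 2 had 63.7% and 64.9%, and untreated libraries had 64.9% to 68.0%. The libraries were kept under their labels, "the library labelled CaCl2 replicate 3" and "the library labelled CaCl2 + MNase replicate 2" below, and calls that change without them are given beside the result.

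In untreated libraries Pol I occupancy in ETS2 was concentrated at a few positions. Occupancy here and below means the signal of co-purified 3′ ends. Whether such an end belongs to a nascent or to a cut RNA was not tested. The highest was U15, the last base before the Rnt1-cleaved stretch, with 1012, 992 and 1197 CPM, followed by C14 with 580, 595 and 695 CPM. T1 had rank 3 in all 3 libraries, with 181, 170 and 190 CPM. The 3′ base of the AGGA loop, A33, had 161, 145 and 156 CPM and ranked 4 or 5. Between the Rnt1-cleaved stretch and T1 the highest positions were G57, with 67.7, 48.6 and 61.8 CPM, C91, the base before T1, with 47.8, 44.5 and 72.0 CPM, and A69, with 43.9, 32.9 and 36.8 CPM. Past T1 the highest was A98, with 65.2, 51.5 and 58.8 CPM, and both positions next in height, A156 and A150, lay beyond the Reb1/Nsi1 site with 25.4 to 34.3 CPM and 11.2 to 12.8 CPM.

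**Figure D1:**
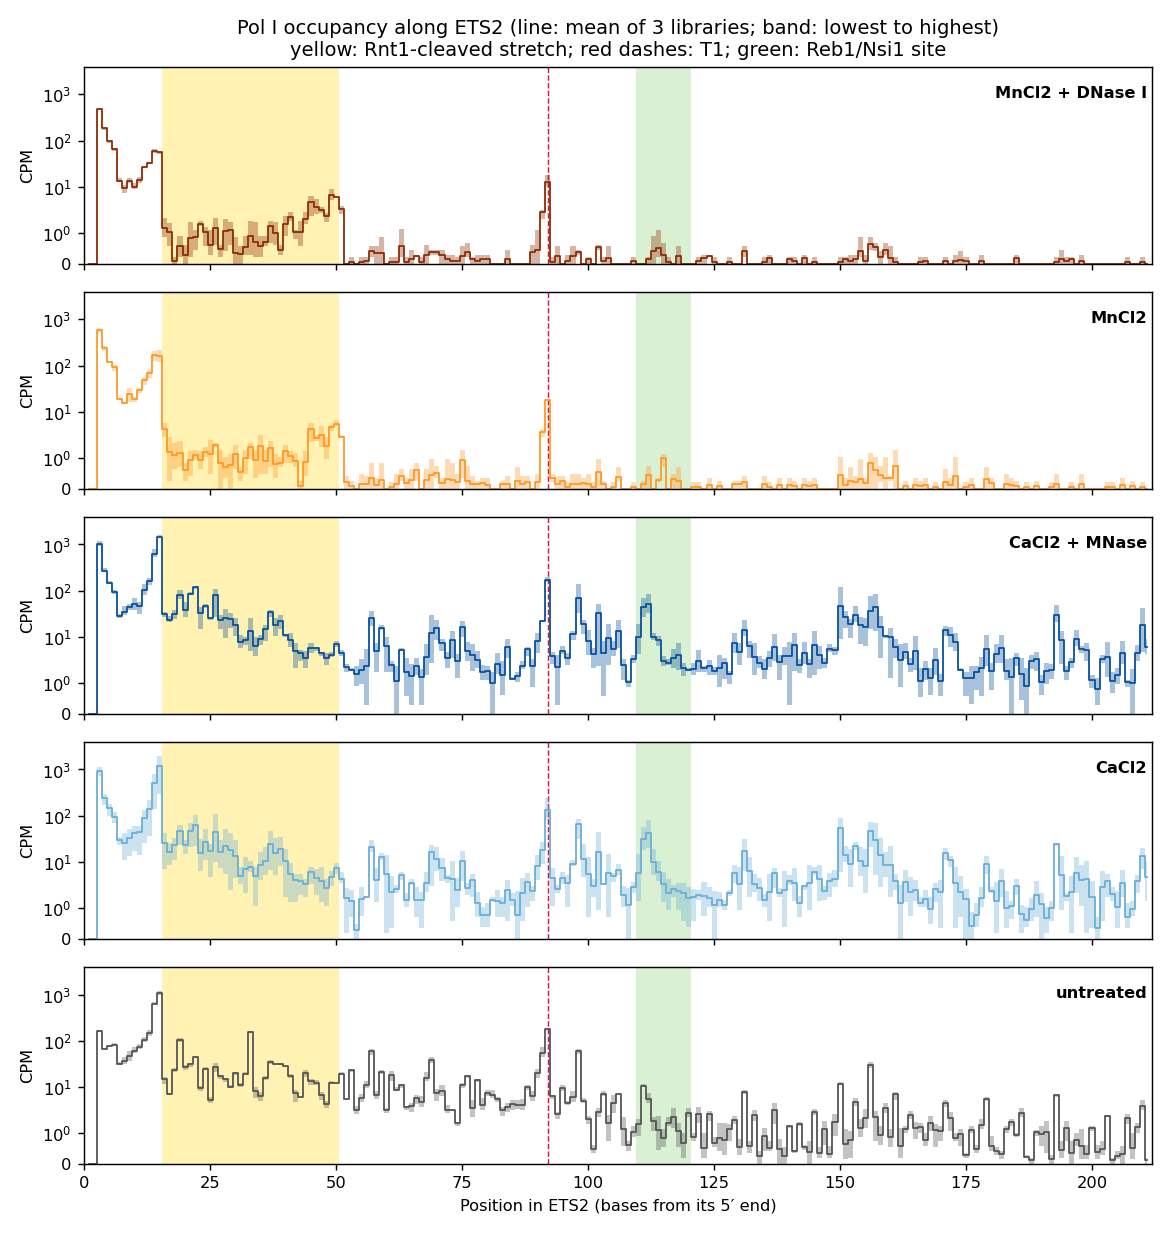
CPM (vertical axis, linear below 1 and logarithmic above) at each position of ETS2 (horizontal axis, bases from the 5′ end of ETS2) in 5 panels, with the mean of 3 libraries as a line and the range as a band. Untreated libraries have separate peaks at U15, A33 and U92, CaCl2 and CaCl2 + MNase libraries have no such peak at A33 and more signal past U92, and both MnCl2 groups lie near 0 after G50 except around U92.

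Summed over ETS2, the CPM were lower in both MnCl2 groups and higher in the CaCl2 + MNase group than in untreated libraries, the direction in the MnCl2 groups turning with the scaling. The MnCl2 + DNase I libraries had 1137, 1198 and 1164 CPM, the MnCl2 libraries 1920, 1459 and 1736 CPM, the CaCl2 + MNase libraries 6485, 5974 and 6407 CPM, the CaCl2 libraries 5398, 2785 and 7286 CPM, and the untreated libraries 4264, 4078 and 4775 CPM. The means were 1166 ± 30.2, 1705 ± 232, 6289 ± 276, 5156 ± 2260 and 4372 ± 361 CPM in that order (SD, n = 3 each), and only the CaCl2 group overlapped the untreated one. CaCl2 replicate 2 was low over the whole spacer, with 0.279% of its 35S signal there against 0.540% and 0.729% in the other libraries of its group.

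The CPM base includes the rRNA genes, which can carry mature rRNA, so a scaling to the spacers alone was also run. It divided libraries by factors of -1.79 to 0.95 on the log2 scale, lowest in MnCl2 + DNase I and highest in untreated libraries. The values of MnCl2 + DNase I were thus raised and those of untreated libraries lowered. Under it the log2 ratio of the summed ETS2 means to the untreated mean turned to 0.73 in MnCl2 + DNase I, against -1.91 in CPM, and to 0.93 in MnCl2, against -1.36 in CPM. In CaCl2 + MNase it was 0.99, against 0.52 in CPM, and in CaCl2 0.95, against 0.24. The lower total in the MnCl2 groups thus holds relative to the 35S gene and not relative to its spacers. Where this scaling turns the direction of a change named below that was called with or without it, its value stands beside it. Falls against untreated in the MnCl2 groups that keep their direction are smaller under it than in CPM.

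Over single positions of ETS2, falls made up nearly all calls in the MnCl2 groups, and in the CaCl2 groups the calls at positions 51 to 91 were all falls and those at and past the Reb1/Nsi1 site all rises. MnCl2 + DNase I against untreated called 182 of 200 positions tested, 3 higher and 179 lower, where 75.7% of all 35S positions tested were called, 27.5% higher and 48.2% lower. MnCl2 against untreated called 174 of 205, 3 higher and 171 lower, where 72.9% of 35S positions were called, 28.6% higher and 44.2% lower. The median log2 change over ETS2 was -1.82 and -1.61 in these comparisons, against -0.24 and -0.19 over the 35S gene. Under the spacer scaling the splits were 15 higher and 112 lower for MnCl2 + DNase I, and 17 higher and 109 lower for MnCl2.

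CaCl2 + MNase against untreated called 111 of 209 positions, 73 higher and 38 lower, where 54.7% of 35S positions were called (32.2% higher and 22.5% lower), and the median change was 0.44 against 0.11 over the gene. CaCl2 against untreated called 61 of 209, 30 higher and 31 lower, where 32.3% of 35S positions were called (16.1% higher and 16.3% lower), and the median change was 0.19 against 0.07. The share called in ETS2 thus lay near that of the whole gene in both. Under the spacer scaling the splits were 100 higher and 25 lower for CaCl2 + MNase, and 84 higher and 21 lower for CaCl2. The CaCl2 count was 100 without the library labelled CaCl2 replicate 3, and 23, 24 and 18 without untreated replicate 1, 2 and 3. These 4 comparisons share the untreated libraries.

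**Figure D2:**
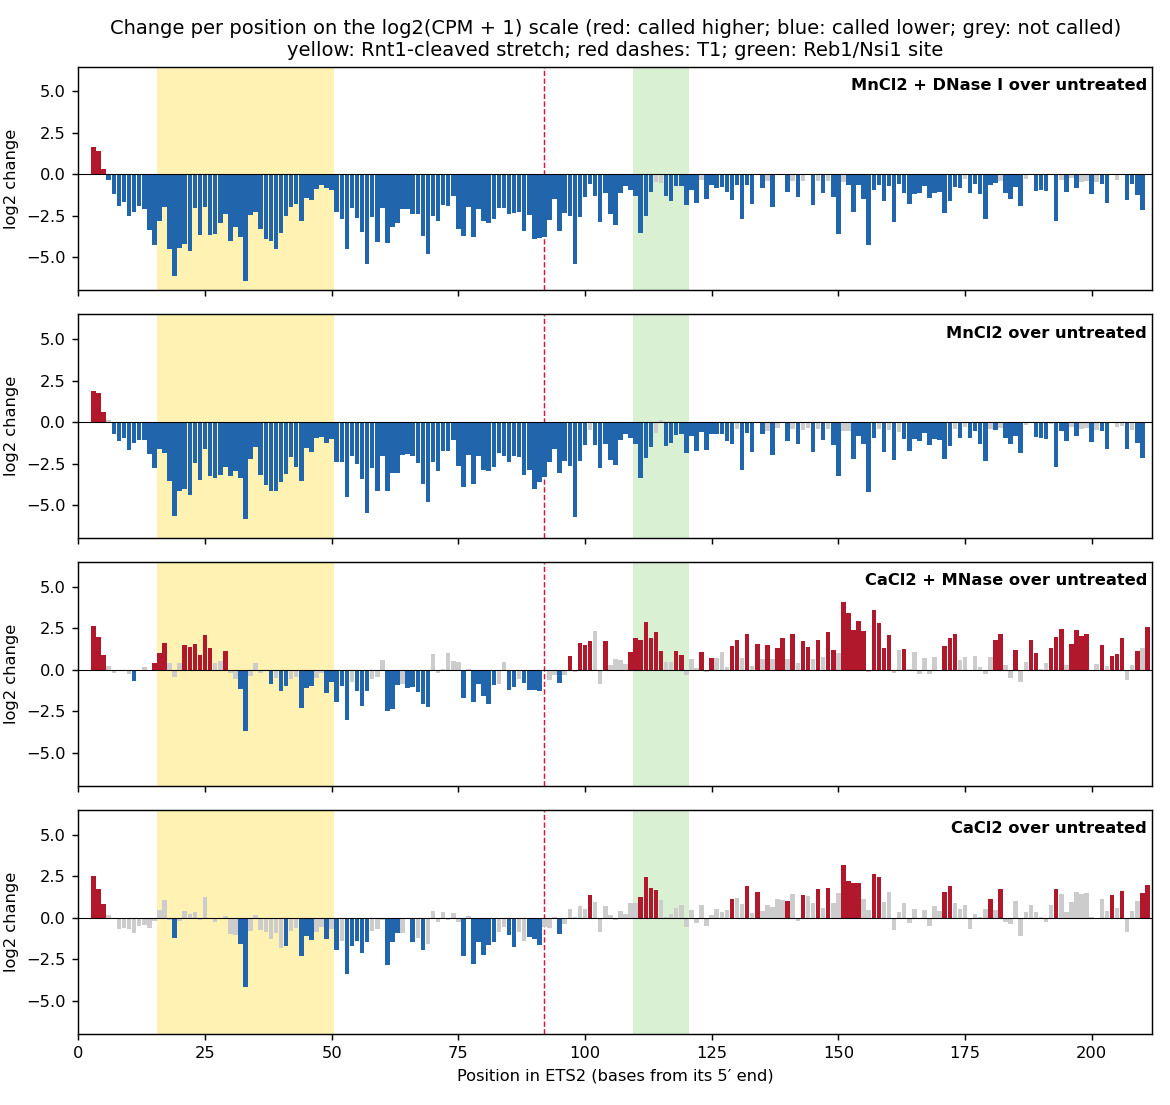
Log2 change per position on the log2(CPM + 1) scale (vertical axis) along ETS2 (horizontal axis, bases from the 5′ end of ETS2) for the 4 treated groups over untreated. The 22 called falls and 0 called rises at positions 51 to 91 and the 22 called rises and 0 called falls past the Reb1/Nsi1 site in the CaCl2 panel stand on either side of T1, and blue bars fill nearly all of both MnCl2 panels after the first 3 positions tested.

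At the 25S end, positions 3 to 6 gained and positions 14 and 15 parted by treatment. The first position with any signal, U3, had 496, 514 and 474 CPM in MnCl2 + DNase I libraries, 653, 546 and 596 CPM in MnCl2 libraries, 1185, 922 and 931 CPM in CaCl2 + MNase libraries, 1125, 736 and 882 CPM in CaCl2 libraries, and 156, 167 and 156 CPM in untreated libraries. All 12 treated libraries lay above the 3 untreated ones. The log2 changes over untreated were 1.63 ± 0.082 for MnCl2 + DNase I, 1.90 ± 0.11 for MnCl2, 2.65 ± 0.11 for CaCl2 + MNase and 2.49 ± 0.17 for CaCl2 (SE, limma adjusted p 1.83e-09, 5.41e-09, 5.87e-06 and 0.000116). U4 also rose in all 4 comparisons, by 1.43, 1.78, 1.99 and 1.75 on the log2 scale. These 3′ ends lie 3 and 4 bases past the last base of the mature 25S rRNA in the tables' coordinates.

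Positions 3 to 6 together held 71.7%, 72.8% and 72.0% of all ETS2 signal in MnCl2 + DNase I libraries and 59.2%, 64.4% and 61.03% in MnCl2 libraries. They held 27.0%, 23.5% and 22.2% in CaCl2 + MNase libraries, 31.7%, 38.4% and 19.01% in CaCl2 libraries, and 8.87%, 9.53% and 8.25% in untreated libraries. The share was thus higher in every treated library than in any untreated one.

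U15, the base before the Rnt1-cleaved stretch, had 51.5, 57.7 and 57.9 CPM in MnCl2 + DNase I libraries, 214, 117 and 159 CPM in MnCl2 libraries, 1366, 1378 and 1577 CPM in CaCl2 + MNase libraries, 1299, 299 and 1983 CPM in CaCl2 libraries, and 1012, 992 and 1197 CPM in untreated libraries. It fell by 4.23 on the log2 scale in MnCl2 + DNase I (limma adjusted p = 3.84e-12) and by 2.74 in MnCl2 (adjusted p = 2.05e-08), and rose by 0.43 in CaCl2 + MNase (adjusted p = 0.014), a call lost under median-ratio scaling (adjusted p = 0.0557), with all 15 libraries in 1 fit (0.428) and without CaCl2 + MNase replicate 3 (0.056). In CaCl2 the log2 change was -0.21 ± 0.60 (SE, adjusted p = 0.809), and the libraries lay on both sides of the untreated ones. Its neighbour C14 fell by 3.34 and 1.92 in MnCl2 + DNase I and MnCl2, the MnCl2 change turning to 0.37 under the spacer scaling.

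Sums over stretches were tested with limma over 232 windows of the 35S gene, 7 of them in ETS2. Of these windows 76.3% were called in MnCl2 + DNase I, 72.4% in MnCl2, 61.6% in CaCl2 + MNase and 31.9% in CaCl2, each against untreated. Summed over positions 1 to 15, the MnCl2 + DNase I libraries had 1035, 1115 and 1084 CPM, the MnCl2 libraries 1817, 1365 and 1624 CPM, the CaCl2 + MNase libraries 4107, 3737 and 4360 CPM, the CaCl2 libraries 4063, 1649 and 4778 CPM, and the untreated libraries 2435, 2417 and 2871 CPM. The sum was lower in MnCl2 + DNase I (log2 change -1.25, limma adjusted p over 232 windows = 4.64e-09) and in MnCl2 (-0.69, adjusted p = 0.000253), both directions turning under the spacer scaling to 1.38 and 1.61. It rose in CaCl2 + MNase (0.66 ± 0.087 SE, adjusted p = 0.00011) and was not called in CaCl2 (0.31 ± 0.34 SE, adjusted p = 0.514), though it was without CaCl2 replicate 2 (0.78, adjusted p = 0.000445) and under the spacer scaling (1.10, adjusted p = 0.000666).

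In the Rnt1-cleaved stretch, the loop base A33 fell in all 4 treated groups. It had 0.285, 1.82 and 0.608 CPM in MnCl2 + DNase I libraries, 2.12, 0.967 and 2.12 CPM in MnCl2 libraries, 10.0, 25.6 and 4.99 CPM in CaCl2 + MNase libraries, 10.5, 6.96 and 5.97 CPM in CaCl2 libraries, and 161, 145 and 156 CPM in untreated libraries. The 12 treated libraries all lay below the untreated ones. The log2 changes were -6.43, -5.86, -3.69 and -4.17 in that order of treatments (limma adjusted p 1.7e-10, 7.74e-11, 0.000457 and 9.37e-05), and A33 was the largest called fall of ETS2 in each comparison. In CPM its mean in CaCl2 was 19.8-fold lower than in untreated libraries. The base ranked 4 or 5 within ETS2 in untreated libraries and from 34 to 100 in CaCl2 + MNase and CaCl2 libraries.

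U19 had 64.4, 101 and 74.2 CPM in CaCl2 + MNase libraries, 57.6, 23.5 and 61.4 CPM in CaCl2 libraries, and 110, 92.9 and 113 CPM in untreated libraries, and held 11 reads or fewer in each library of the MnCl2 groups. It fell in CaCl2 (log2 change -1.24 ± 0.34 SE, limma adjusted p = 0.0267) and was not called in CaCl2 + MNase (-0.41 ± 0.18, adjusted p = 0.0762). The CaCl2 call was lost under the spacer scaling (-0.46, adjusted p = 0.215) and without untreated replicate 1, 2 or 3 (0.0884, 0.0627 and 0.105). In CaCl2 + MNase U19 was called lower without the library labelled CaCl2 + MNase replicate 2 (-0.59, adjusted p = 0.00604), under median-ratio scaling (0.0425) and by DESeq2 (0.0291), so that a difference between the CaCl2 groups is not shown here. G22 had 128, 110 and 121 CPM in CaCl2 + MNase libraries, 62.8, 22.2 and 106 CPM in CaCl2 libraries, and 47.6, 43.0 and 43.1 CPM in untreated libraries. G22 rose in CaCl2 + MNase, by 1.40 ± 0.12 (SE, adjusted p = 0.000115), with no overlap.

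The last base of the stretch, G50, which pairs with C14 in the fold, had 5.98, 5.70 and 6.08 CPM in MnCl2 + DNase I libraries, 4.94, 4.84 and 6.56 CPM in MnCl2 libraries, 6.77, 8.10 and 5.89 CPM in CaCl2 + MNase libraries, 5.58, 6.96 and 9.27 CPM in CaCl2 libraries, and 12.2, 11.98 and 11.997 CPM in untreated libraries. Its log2 change was -0.92 in MnCl2 + DNase I and -1.03 in MnCl2 (limma adjusted p 0.000267 and 0.000363), values that turn to 1.47 and 1.03 under the spacer scaling. In the MnCl2 groups its fall was thus smaller than that of A33 and U19 in the same libraries. In CaCl2 + MNase the change was -0.73 (adjusted p = 0.0192) and in CaCl2 -0.68 (adjusted p = 0.101). The CaCl2 + MNase call was lost under the spacer scaling (-0.29, adjusted p = 0.238), with the replicate block (0.0509), without CaCl2 + MNase replicate 3 (0.0635) and without untreated replicate 1, 2 or 3 (0.0717, 0.0559 and 0.058). Without the library labelled CaCl2 replicate 3 the CaCl2 change was called (-0.85, adjusted p = 0.0214).

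Summed over the 35 bases of the Rnt1-cleaved stretch, the MnCl2 + DNase I libraries had 60.6, 49.5 and 49.8 CPM, the MnCl2 libraries 61.4, 45.0 and 61.8 CPM, the CaCl2 + MNase libraries 958, 780 and 899 CPM, the CaCl2 libraries 502, 227 and 1006 CPM, and the untreated libraries 850, 785 and 850 CPM. The log2 changes were -3.94 and -3.88 in MnCl2 + DNase I and MnCl2 (limma adjusted p 2.13e-13 and 3.84e-10). All 35 positions were called lower in both (over the gene, 48.2% and 44.2%). The change was 0.08 in CaCl2 + MNase (adjusted p = 0.519), with 9 positions called higher and 10 lower (over the gene, 32.2% and 22.5%). It was called higher under the spacer scaling (0.55, adjusted p = 0.000276). In CaCl2 the change was -0.77 ± 0.49 (SE, adjusted p = 0.265), with 8 positions called lower and 0 higher (over the gene, 16.3% and 16.1%). Without the library labelled CaCl2 replicate 3, the highest of that group, it was -1.29 (adjusted p = 0.0151).

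**Figure D3:**
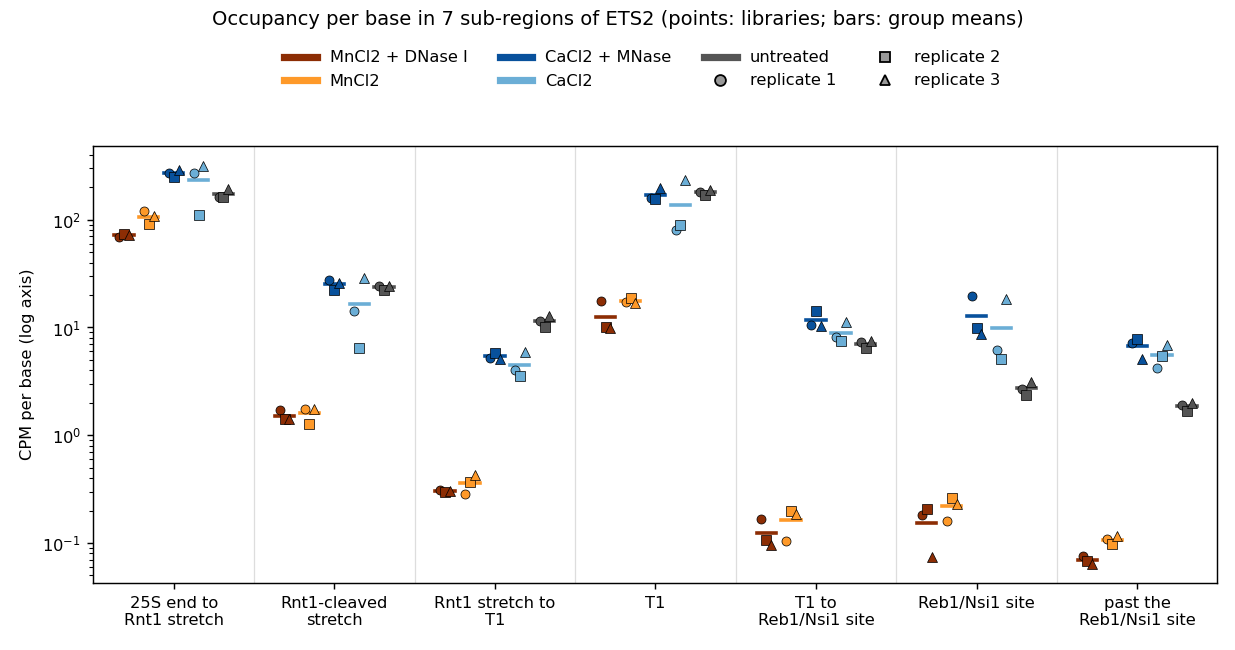
CPM per base (log axis) in 7 sub-regions of ETS2 from the 25S end to past the Reb1/Nsi1 site, with 1 point per library and bars at group means. The CaCl2 and CaCl2 + MNase points lie below the untreated points between the Rnt1 stretch and T1 and above them at and past the Reb1/Nsi1 site, while both MnCl2 groups lie below all others in every sub-region after the first.

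Between the Rnt1-cleaved stretch and T1 (positions 51 to 91), where Pol I transcribes the T-rich element, occupancy fell in all 4 treated groups. The sum was 12.8, 12.3 and 12.4 CPM in MnCl2 + DNase I libraries, 11.6, 14.99 and 17.6 CPM in MnCl2 libraries, 216, 238 and 211.3 CPM in CaCl2 + MNase libraries, 164, 145 and 245 CPM in CaCl2 libraries, and 471, 418 and 520 CPM in untreated libraries. No treated library reached the lowest untreated one. The log2 changes were -5.12, -4.91, -1.08 and -1.37 in that order (limma adjusted p 3.1e-14, 2.09e-10, 7.96e-05 and 0.0173). The CaCl2 mean was 2.54-fold lower than the untreated mean, and the call was lost without untreated replicate 1, 2 or 3 (adjusted p 0.0881, 0.0682 and 0.107).

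All 41 positions of this stretch were called lower in both MnCl2 groups, 26 in CaCl2 + MNase and 22 in CaCl2, and 0 were called higher in any of the 4. A53 had 2.06, 1.85 and 1.89 CPM in CaCl2 + MNase libraries, 0.698, 1.13 and 2.43 CPM in CaCl2 libraries, and 24.8, 21.1 and 23.8 CPM in untreated libraries, log2 changes of -3.04 and -3.38 (limma adjusted p 4.47e-05 and 0.000483). In the 6 libraries of the MnCl2 groups it held at most 1 read. C91, just before T1, fell by 1.27 in CaCl2 + MNase and by 1.67 in CaCl2 (adjusted p 0.00158 and 0.0136), the CaCl2 call being lost without untreated replicate 3 (0.0731).

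T1 itself fell in both MnCl2 groups and was not called in either CaCl2 group. It had 17.6, 10.0 and 9.93 CPM in MnCl2 + DNase I libraries, 17.3, 18.9 and 16.9 CPM in MnCl2 libraries, 157, 154 and 198 CPM in CaCl2 + MNase libraries, 80.9, 90.3 and 235 CPM in CaCl2 libraries, and 181, 170 and 190 CPM in untreated libraries. The log2 change per position was -3.79 in MnCl2 + DNase I and -3.28 in MnCl2 (limma adjusted p 1.73e-09 and 2.85e-10). It was -0.09 ± 0.12 in CaCl2 + MNase (SE, adjusted p = 0.53), a value that turns to 0.37 and is called under the spacer scaling (adjusted p = 0.0131), and -0.58 ± 0.36 in CaCl2 (SE, adjusted p = 0.237). Among the CaCl2 libraries, the one labelled replicate 3 lay above all untreated libraries and the others below them, and without it the T1 window changed by -1.07 (adjusted p over windows = 0.00304).

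Relative to the mean CPM per base just before it (positions 51 to 91), T1 stood out more in every treated library than in any untreated one. The quotient was 56.5, 33.4 and 32.9 in MnCl2 + DNase I libraries, 60.9, 51.6 and 39.5 in MnCl2 libraries, 29.9, 26.6 and 38.5 in CaCl2 + MNase libraries, 20.3, 25.5 and 39.4 in CaCl2 libraries, and 15.8, 16.6 and 14.98 in untreated libraries. In the MnCl2 groups it rests on 44 to 80 reads at T1 per library.

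Past T1 occupancy rose in both CaCl2 groups and fell in both MnCl2 groups. These groups differ in cation, its concentration, and the time and temperature of incubation, which cannot be told apart. From position 93 to the end of ETS2 the sum was 11.7, 10.3 and 8.31 CPM in MnCl2 + DNase I libraries, 13.4, 15.2 and 16.3 CPM in MnCl2 libraries, 1047, 1064 and 739 CPM in CaCl2 + MNase libraries, 589, 674 and 1021 CPM in CaCl2 libraries, and 327, 289 and 344 CPM in untreated libraries. Every CaCl2 and CaCl2 + MNase library lay above the untreated ones and every MnCl2 and MnCl2 + DNase I library below them. The means were 2.97-fold higher in CaCl2 + MNase and 2.38-fold higher in CaCl2 than in untreated libraries. In CPM the means of MnCl2 + DNase I and MnCl2 were 31.7-fold and 21.4-fold lower than in untreated libraries, on 38 to 77 reads per library against 1594 to 2249 in untreated libraries. Both folds are smaller under the spacer scaling. Its log2 factors, by which libraries were divided, were -1.79 to -1.22 in these groups and 0.83 to 0.95 in untreated libraries.

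At the Reb1/Nsi1 site (positions 110 to 120) the CaCl2 + MNase libraries had 217, 110 and 96.3 CPM, the CaCl2 libraries 67.3, 55.7 and 203 CPM, and the untreated libraries 29.3, 25.8 and 34.6 CPM, with no overlap. The log2 changes were 2.12 ± 0.28 and 1.59 ± 0.52 (SE, limma adjusted p 0.00011 and 0.0455). Of the 11 positions, 8 were called higher in CaCl2 + MNase and 4 in CaCl2, and 0 lower in either, where 32.2% and 16.1% of 35S positions were called higher. The CaCl2 call was lost without untreated replicate 1, 2 or 3 (adjusted p 0.138, 0.167 and 0.1303) and with the replicate block (0.0556), whereas without the library labelled CaCl2 replicate 3 the change was 1.02 (adjusted p = 0.00924).

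From the end of the site to the end of the spacer (position 121 onwards), the CaCl2 + MNase libraries had 652, 714 and 466 CPM, the CaCl2 libraries 382, 490 and 629 CPM, and the untreated libraries 173, 154 and 181 CPM. The log2 changes were 1.82 ± 0.17 and 1.53 ± 0.35 (SE, limma adjusted p 1.46e-05 and 0.0117). Of the 91 positions, 46 and 22 were called higher (50.5% and 24.2%), with 0 lower in either. Over the 35S gene 32.2% and 16.1% of positions were called higher. The CaCl2 call of the sum was again lost without untreated replicate 1, 2 or 3 (adjusted p 0.056, 0.0619 and 0.0647). Between T1 and the site (positions 93 to 109) the change was 0.70 ± 0.16 in CaCl2 + MNase (adjusted p = 0.00361) and 0.31 ± 0.37 in CaCl2 (adjusted p = 0.536), which was called under the spacer scaling (1.10, adjusted p = 5.54e-05). In the MnCl2 groups, 108 positions past T1 were at the floor in each comparison with untreated libraries, and 92 of 110 tested in MnCl2 + DNase I and 85 of 115 in MnCl2 were called lower. Over the 35S gene 48.2% and 44.2% of positions were called lower in these comparisons, and 75.7% and 72.9% were called in either direction.

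The highest untreated position past T1, A98, did not follow the rest in the CaCl2 groups. It had 34.4, 141 and 32.1 CPM in CaCl2 + MNase libraries, 84.1, 79.2 and 31.6 CPM in CaCl2 libraries, and 65.2, 51.5 and 58.8 CPM in untreated libraries, and its log2 changes were -0.11 and 0.03 (limma adjusted p 0.869 and 0.953). Without the library labelled CaCl2 + MNase replicate 2, the one at 141 CPM, A98 was called lower in CaCl2 + MNase (-0.79, adjusted p = 0.00276). The libraries of each CaCl2 group lay on both sides of the untreated ones. In the 6 libraries of the MnCl2 groups A98 held 2 reads or fewer.

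The measure of signal past T1 relative to the bases before it takes both parts from the same library. Scaling thus cancels, except for 0.01 CPM added to each part. This constant weighs most in the MnCl2 groups, where the parts were 0.0698 to 0.137 and 0.284 to 0.428 CPM per base. With it, CPM per base from position 93 to the end over CPM per base at positions 51 to 91 was 0.335, 0.310 and 0.256 in MnCl2 + DNase I libraries, 0.417, 0.367 and 0.335 in MnCl2 libraries, 1.67, 1.54 and 1.20 in CaCl2 + MNase libraries, 1.24, 1.60 and 1.44 in CaCl2 libraries, and 0.240, 0.239 and 0.228 in untreated libraries. All 6 libraries with CaCl2 had more signal per base past T1 than before it, and all 9 others had less. The 5 groups differed (one-sided exact permutation test on the F ratio over all partitions of the 15 libraries, p = 3.07e-05).

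On the log2 scale the ratio, with the constant added, exceeded that of untreated libraries by 0.34 in MnCl2 + DNase I, 0.66 in MnCl2, 2.63 in CaCl2 + MNase and 2.59 in CaCl2, with no overlap in any of the 4. As folds these are 1.27, 1.58, 6.18 and 6.01. In MnCl2 + DNase I the lack of overlap depended on the constant. Replicate 3 of that group had 0.0698 CPM per base past T1 and 0.301 before it, a plain quotient within the untreated range. With the region past T1 taken from position 121 the differences were 0.62, 0.98, 2.903 and 2.91, and with the region before T1 taken from position 62 they were 0.47 in MnCl2 and 2.44 in CaCl2. Each pair gave a two-sided exact permutation p of 0.1, the smallest that 3 against 3 libraries allow (adjusted over 7 pairs, 0.14). The ratio in MnCl2 libraries lay 1.93 below that in CaCl2 libraries, also without overlap.

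**Figure D4:**
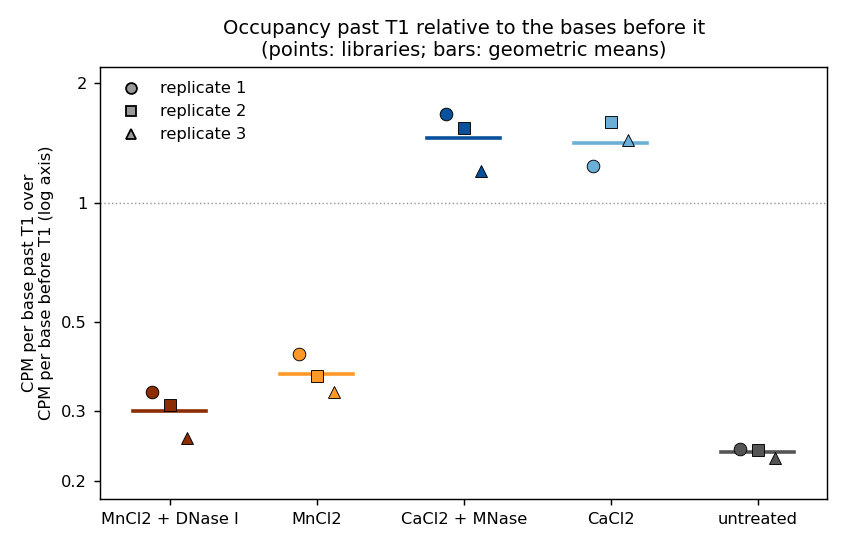
CPM per base past T1 (position 93 to the end) divided by CPM per base before T1 (positions 51 to 91), with 0.01 CPM added to each, on a log axis, with 1 point per library and bars at geometric means for the 5 groups. The 6 CaCl2 and CaCl2 + MNase libraries sit at 1.20 to 1.67, the 6 MnCl2 and MnCl2 + DNase I libraries at 0.256 to 0.417 and the 3 untreated libraries at 0.228 to 0.240.

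With all libraries kept, the 2 largest called rises of ETS2 in both CaCl2 groups fell on the U of AU dinucleotides beyond the Reb1/Nsi1 site. This stretch (positions 143 to 165, chrXII:460758-460780, minus strand) is shown because its neighbouring bases moved differently, and the capitals mark A150, U151, A156 and U157.
peaks past the site: auauacgAUgaggAUgauagugu
U151 had 35.9, 15.8 and 29.4 CPM in CaCl2 + MNase libraries, 10.1, 10.5 and 21.5 CPM in CaCl2 libraries, and 0.145, 0.544 and 1.22 CPM in untreated libraries. It rose by 4.08 ± 0.37 and 3.17 ± 0.42 on the log2 scale (SE, limma adjusted p 0.00014 and 0.00154), with no overlap. U157 had 85.6, 13.1 and 36.3 CPM in CaCl2 + MNase libraries, 5.23, 13.5 and 69.5 CPM in CaCl2 libraries, and 2.76, 0.726 and 3.05 CPM in untreated libraries. It rose by 3.59 ± 0.62 and 2.64 ± 0.81 (SE, adjusted p 0.002 and 0.0384), also with no overlap, the CaCl2 call being lost without untreated replicate 1, 2 or 3 (0.0871, 0.126 and 0.0998) and without the variance trend (0.0557). Without the library labelled CaCl2 replicate 3, U157 rose by 1.68 in CaCl2, less than U151 (2.84), A150 (2.63) and U3 (2.51). Without the library labelled CaCl2 + MNase replicate 2, U151 and U157 rose by 4.41 and 4.26 in CaCl2 + MNase.

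The A just before each of these U separated the libraries by another line than the labels and was not called in either CaCl2 group with all libraries kept. A150 had 8.83, 118 and 13.8 CPM in CaCl2 + MNase libraries, 69.8, 86.9 and 6.05 CPM in CaCl2 libraries, and 12.8, 11.4 and 11.2 CPM in untreated libraries. A156 had 19.1, 75.8 and 14.96 CPM in CaCl2 + MNase libraries, 46.1, 72.4 and 20.8 CPM in CaCl2 libraries, and 34.3, 25.4 and 31.3 CPM in untreated libraries. CaCl2 + MNase replicates 1 and 3 and CaCl2 replicate 3 had more signal on the U than on the A at both places, and CaCl2 + MNase replicate 2, CaCl2 replicates 1 and 2 and the 3 untreated libraries had more on the A. Without the library labelled CaCl2 replicate 3, A150 and A156 were called higher in CaCl2 (log2 changes 2.63 and 0.92, limma adjusted p 5.53e-05 and 0.0204). A150 was also called higher there by DESeq2 and, as was A156, under the spacer scaling (adjusted p 0.000253 and 0.0062). Without the library labelled CaCl2 + MNase replicate 2, A156 was called lower in CaCl2 + MNase (-0.80, adjusted p = 0.00886) and A150 was not called (-0.08, adjusted p = 0.793).

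**Figure D5:**
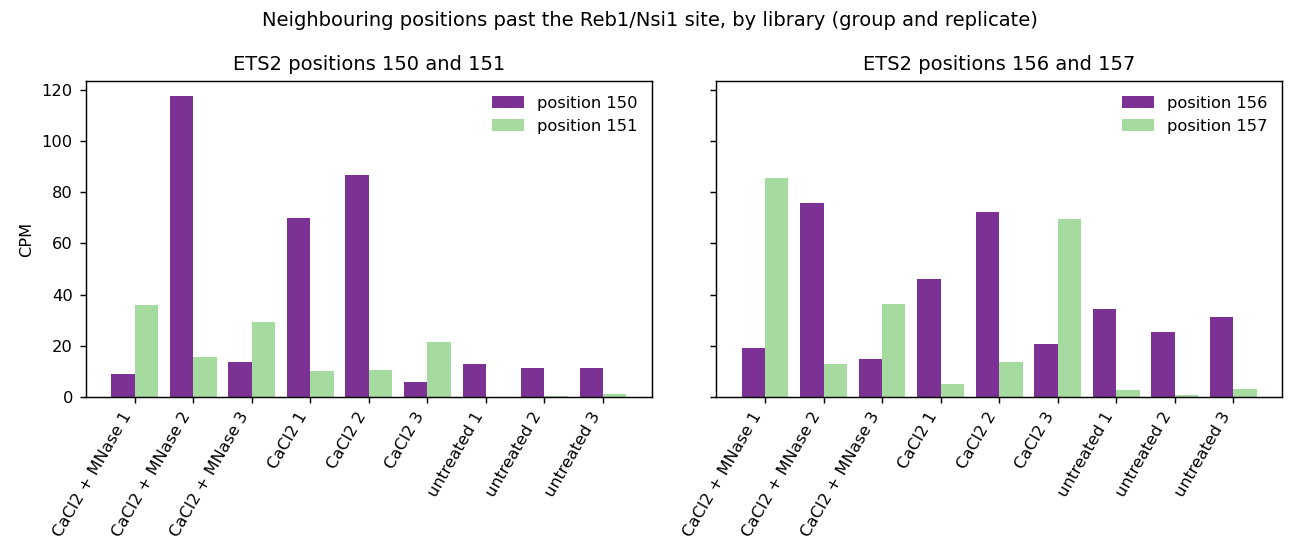
CPM at A150 and U151 (left) and A156 and U157 (right) in each CaCl2 + MNase, CaCl2 and untreated library, named by group and replicate. The taller bar is on the second position of each pair in CaCl2 + MNase 1 and 3 and CaCl2 3, for example 85.6 against 19.1 CPM at U157 and A156 in CaCl2 + MNase 1, and on the first in the other 6 libraries.

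MNase added to CaCl2 moved no ETS2 position or sub-region past the threshold. Of 209 positions tested 0 were called by limma, edgeR or DESeq2, and 4 had an unadjusted limma p under 0.05, where 0% of 35S positions were called and 2.28% had such a p. The sub-region log2 changes ran from 0.29 to 0.85, the largest that of the Rnt1-cleaved stretch, with adjusted p of 0.778 to 0.806 (0% of windows called), and the CaCl2 spread was wide in most of them. The ratio past T1 over before T1 differed by 0.04 on the log2 scale, with overlap (two-sided exact permutation p = 0.8). With the library labelled CaCl2 replicate 3 and the library labelled CaCl2 + MNase replicate 2 both left out, 21 of 208 ETS2 positions were called, 17 of them higher, against 3.33% of all 35S positions and 0 of 232 windows. Those libraries were left out for the very profile that is tested here, so the count is a description and not evidence of an effect of MNase.

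On adding DNase I to MnCl2, the positions called were all lower and lay just before the Rnt1-cleaved stretch, and the calls depended on the settings. Of 102 ETS2 positions tested 5 were called, all lower, at positions 11 to 15, where 0.238% of 35S positions were called, 0.178% lower. U15, with 51.5, 57.7 and 57.9 CPM in MnCl2 + DNase I libraries against 214, 117 and 159 CPM in MnCl2 libraries, fell by 1.49 ± 0.16 on the log2 scale, and C14, with 53.5, 62.9 and 65.6 CPM against 208, 125 and 167 CPM, fell by 1.42 ± 0.15 (SE, limma adjusted p = 0.00032 for both). The groups did not overlap at either position. The first position with signal, U3, changed by -0.27 (adjusted p = 0.15).

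Summed over positions 1 to 15 the change on adding DNase I was -0.56 ± 0.11 (SE, limma adjusted p over windows = 0.0271), where 1.29% of windows were called. The call was lost without MnCl2 + DNase I replicate 1, 2 or 3 or without MnCl2 replicate 3 (adjusted p 0.0783 to 0.256), under the spacer scaling (-0.23, adjusted p = 0.158), under median-ratio scaling (0.0704), with all 15 libraries in 1 fit (0.452) and without the variance trend (0.0589). Signal past T1 was lower in each MnCl2 + DNase I library (11.7, 10.3 and 8.31 CPM) than in each MnCl2 library (13.4, 15.2 and 16.3 CPM), and its change past the site, -0.57, was not called (adjusted p = 0.171). The count of 5 was 0 with all 15 libraries in 1 fit, with no filter on low positions or with no trend in the variance model, and it was 2 on leaving out each library of the MnCl2 + DNase I group in turn. Under the spacer scaling it was 8, with 2 higher and 6 lower.

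The effects of the 2 nucleases were compared with an interaction term over the 12 treated libraries. The effect of MNase exceeded that of DNase I by 0.50 to 1.00 on the log2 scale in the 7 sub-regions, and none was called (limma adjusted p 0.296 to 0.505). Of 209 ETS2 positions 0 were called and 12 (5.74%) had an unadjusted p under 0.05, against 9.76% of all 35S positions. With both doubted libraries left out 40 of 209 were called, against 6.47% of all 35S positions, and the T1 window differed by 1.55 (adjusted p = 0.0269), where 6.03% of windows were called, a value limited by the same choice of libraries as above.

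MnCl2 against CaCl2 gave lower ETS2 CPM in every sub-region, in a comparison where cation, concentration and incubation all differ. Of 202 positions tested 134 were called, all lower, where 42.2% of 35S positions were called (32.6% lower), and 139 positions were at the floor in MnCl2 libraries. The count was 86, 89 and 87 without MnCl2 replicate 1, 2 and 3 (of 201, 202 and 201 tested), and 97 without the library labelled CaCl2 replicate 3 (of 153 tested). Of the windows 50.4% were called, and the sub-region changes were -0.997 at the 25S end (limma adjusted p = 0.0436, a change that turns to 0.50 under the spacer scaling and was not called under median-ratio scaling, without the variance trend, or without any 1 MnCl2 library, CaCl2 replicate 1 or CaCl2 replicate 3), -3.11 in the Rnt1-cleaved stretch (0.00137), -3.54 up to T1 (0.000128), -2.70 at T1 (0.00172) and -5.51 past the Reb1/Nsi1 site (1.02e-05).

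The largest falls by the rule were at A98, where MnCl2 libraries had 0 to 2 reads against 84.1, 79.2 and 31.6 CPM in CaCl2 libraries, and at A150, where they had 0 to 3 reads against 69.8, 86.9 and 6.05 CPM. The log2 changes were -5.73 and -4.69 (limma adjusted p 4.71e-05 and 0.00254). U3 differed by -0.59 (adjusted p = 0.0329), turning to 0.91 under the spacer scaling. Its call was lost under median-ratio scaling (0.137), by DESeq2 (0.0832) and edgeR (0.224), without MnCl2 replicate 1, 2 or 3 (0.0593, 0.135 and 0.106) and without CaCl2 replicate 1 or 3 (0.102 and 0.0502). Same-numbered libraries of these groups deviated together over the 35S gene, and less evenly over ETS2. With the replicate number as a block C14 was called as well (log2 change -1.30, limma adjusted p = 0.00307, against 0.0784 with no block).

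The fall of ETS2 in MnCl2 was set beside that of the other spacers, using positions 16 to 91 so that neither the 25S end nor the region past T1 entered. ITS1 and ITS2 were likewise taken from their 16th base, and ETS1 was taken whole. On the log2 scale of CPM per base, ETS2 changed by -4.20 in MnCl2, against -4.83 in ETS1, -2.73 in ITS1 and -2.80 in ITS2. The log2 ratio of ETS2 to ETS1 was thus 0.65 higher in MnCl2 than in untreated libraries, and the ratios to ITS1 and ITS2 were 1.46 and 1.39 lower. In MnCl2 + DNase I the differences were 0.80, -1.46 and -1.29. The groups did not overlap in any of these 6 contrasts, and each gave the smallest two-sided exact permutation p of 0.1 (adjusted over the family, 0.175).

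In CaCl2 the same differences were 0.13, 0.05 and 0.10, and the groups overlapped in all 3. In CaCl2 + MNase they were 0.60, 0.19 and 0.25, with no overlap (exact permutation p = 0.1 each). With positions 51 to 91 in place of 16 to 91 the CaCl2 + MNase differences turned to -0.24, -0.65 and -0.59, the CaCl2 differences to -0.31, -0.39 and -0.34, and those to ETS1 in MnCl2 + DNase I and MnCl2 to -0.09 and -0.13, so that of these differences from untreated only the lower ratios to ITS1 and ITS2 in the MnCl2 groups kept their direction. Those moved to -2.35 and -2.18 in MnCl2 + DNase I and -2.24 and -2.17 in MnCl2.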

How the data were processed

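The deposited values are CPM per position of the 35S gene: the authors removed duplicate reads by their molecular identifiers, trimmed reads (cutadapt 3.4), aligned them to R64 with STAR 2.7.1a, counted 3′ ends per base (SAMtools 1.6, bedtools 2.28.0; R 4.0.2) and divided by each library's total over positions 1 to 6739. Columns with the authors' means, medians, spreads, ratios and p-values were not used. CPM steps gave whole reads (within 0.05 of a read) for 99.7% to 99.99% of positions per library, least surely in CaCl2 replicate 3 and CaCl2 + MNase replicate 3.

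Each of 7 pairs of groups was fitted with limma 3.58.1 (R 4.3.3; eBayes with trend) on log2(CPM + 1), which understates changes at low positions, over 35S positions above 0 in at least 3 of the 6 libraries. Benjamini-Hochberg adjustment ran over all positions fitted, with a threshold of 0.05. Sums over 30-base windows and 7 ETS2 sub-regions (232 in all) were fitted likewise. Ratios per library (0.01 CPM added) were tested by exact permutation (scipy 1.17.1). edgeR 4.0.16 and DESeq2 1.42.0 on the recovered reads, a pseudocount of 0.1, other filters and scalings, a replicate block and leaving out each library were alternatives. The hairpin was folded with ViennaRNA 2.7.2. The limma fit per position was first run on simulated reads for CaCl2 against untreated and MnCl2 + DNase I against MnCl2. The permutation test over 5 groups was run on made-up values. The other fits and tests were not tried on such data.

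ETS2 comprised 211 of the 6858 positions of the 35S gene, positions 6648 to 6858, numbered 1 to 211 here. The positions named are T1, the base before the Rnt1-cleaved stretch and its last base, the 2 largest called rises and falls without overlap in each comparison, and the 3 highest untreated positions of each stretch. Positions 5, 6 and 11 to 13 were named after their values were seen. Members and lists were chosen with earlier results of these data known. Same-numbered libraries deviated together (Pearson 0.148, 0.214 and 0.114 over the gene) between MnCl2 and CaCl2, the only pair of groups with all 3 over 0.1 there. Over ETS2 that pair had 0.140, 0.117 and 0.0555. Between CaCl2 + MNase and CaCl2 the values over the gene were -0.376, 0.383 and 0.468. The pairing comes from these correlations, not from the labels.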

Additional observations from a re-analysis of the deposited data

How the results depend on the processing

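Of 2006 changes of named positions under alternatives 1904 were counted as the same in direction and call, as were 616 of 651 sub-region changes. A turn of direction was counted only where the main fit or the alternative called the change. Changes called in neither may thus have turned. Rescaling to the spacer sum gave 105 called positions in CaCl2 against untreated and 8 on adding DNase I, and turned these log2 changes: in MnCl2 + DNase I against untreated to 1.47 at G50, 0.44 at U157 and 1.38 at the 25S end (positions 1 to 15), in MnCl2 against untreated to 0.37 at C14, 1.03 at G50, 0.14 at U157 and 1.61 at the 25S end, in CaCl2 + MNase against untreated to 0.46 at C14 and 0.37 at T1 (as a position and as a window alike), and in MnCl2 against CaCl2 to 0.91 at U3, 0.99 at G50 and 0.50 at the 25S end. Setting CaCl2 + MNase replicate 2 alone against untreated libraries, an alternative chosen after seeing the data, turned A98 to 1.26 and A156 to 1.30. With positions 51 to 91 for ETS2, the difference from ETS1 became -0.0901 in MnCl2 + DNase I, -0.13 in MnCl2 and -0.24 in CaCl2 + MNase, and that from ITS1 and ITS2 in CaCl2 + MNase -0.65 and -0.59. Summed ETS2 against untreated turned to 0.73 in MnCl2 + DNase I and 0.93 in MnCl2 under the spacer scaling, applied to this sum after seeing the data. The cause of these changes was not tested. The 5 calls on adding DNase I became 0 with no filter, 0 with all 15 libraries in 1 fit and 0 without the variance trend. With both doubted libraries left out, also chosen after seeing the data, MNase added to CaCl2 gave 21 calls. Leaving out 1 library gave 18 to 100 called positions in CaCl2, 87 to 130 in CaCl2 + MNase, 128 to 168 in MnCl2 and 115 to 175 in MnCl2 + DNase I against untreated, 0 for MNase added to CaCl2, 2 to 6 for DNase I added to MnCl2, and 86 to 120 in MnCl2 against CaCl2. In the MnCl2 groups, fewer positions passed the filter when an untreated library was left out. Without untreated replicate 1, MnCl2 had 130 calls of 152 positions tested and MnCl2 + DNase I 116 of 135.

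The replicate block gave 180 calls in MnCl2 + DNase I, 169 in MnCl2, 102 in CaCl2 + MNase and 50 in CaCl2 against untreated, 0 for MNase added, 3 for DNase I added and 143 for MnCl2 against CaCl2. The MnCl2 groups held 3 reads or fewer at most positions past G50. The part of depth in this was not tested. MnCl2 replicate 1, with 2835792 reads, had 177 such ETS2 positions, and CaCl2 replicate 1, with 2866044 reads, had 58.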
